A study of Mus musculus with 6 samples.

Results

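Very low-density lipoprotein (VLDL) is the particle in which the liver exports triglyceride, and 7 genes for its assembly in the endoplasmic reticulum (ER) and its exit from that compartment were followed here: Apob, Mttp, Tm6sf2, Pla2g12b, Surf4, Mia3 and Mia2. They were chosen by name for their roles, with earlier results of these data known. Each was read from the array feature annotated with that symbol alone. All 7 were found among the 18820 genes with such a feature, each through 1 feature, and no filter on low values was applied. Expression was measured in primary hepatocytes from male wildtype C57BL/6J mice 8 to 10 weeks old. Dishes of 60 mm received an adenovirus encoding nuclear CREBH (Ad-nuclear CREBH) or one encoding green fluorescent protein (Ad-GFP), both at a multiplicity of infection of 100. RNA was taken after 24 h from 3 dishes of each kind and hybridized to 1 Affymetrix Mouse Gene 1.1 ST array per dish. CREBH is a liver-enriched transcription factor held in the ER membrane, and the virus carried its N-terminal fragment, which is active in the nucleus, under a viral promoter that is not specific to hepatocytes.

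Assembly of VLDL starts with apolipoprotein B, the large protein that forms the backbone of the particle and is loaded with lipid while it enters the ER lumen. Microsomal triglyceride transfer protein carries out the first loading, and TM6SF2 and PLA2G12B act in the ER to enlarge the nascent particle. The loaded particle is too large for an ordinary transport vesicle. Its exit depends on the cargo receptor SURF4 and on the TANGO1 family, transmembrane proteins of ER exit sites encoded by Mia3 and Mia2 that join large cargo in the lumen to the COPII coat in the cytosol.

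CREBH belongs to the CREB and ATF group of basic leucine zipper factors, so the DNA just upstream of the members was read for short elements known from that group and from the ER stress response. RefSeq promoter entries (GRCm38.p6) existed for 6 of the 7 genes and covered 8 transcription starts, 3 of them at the Mia2 locus. Tm6sf2 was not among them. The 250 bases before the start are shown 5′ to 3′ for Mia3 and Mttp, which were higher after Ad-nuclear CREBH, for Apob, which was not, and for the outermost starts of Mia2, because the array features of that locus differed. Capitals mark, on either strand, the letters TGACG of cyclic AMP response elements, the letters CCACG of ER stress elements and the letters ACGTGGC of the Golgi stress element.
Mia3, chr1:183369566-183369815, minus strand: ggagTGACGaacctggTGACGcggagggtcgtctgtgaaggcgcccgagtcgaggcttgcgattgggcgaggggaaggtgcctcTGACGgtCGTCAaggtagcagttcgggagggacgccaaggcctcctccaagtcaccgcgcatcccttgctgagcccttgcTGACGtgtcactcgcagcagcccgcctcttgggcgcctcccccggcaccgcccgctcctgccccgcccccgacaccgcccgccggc
Mttp, chr3:138143419-138143668, minus strand: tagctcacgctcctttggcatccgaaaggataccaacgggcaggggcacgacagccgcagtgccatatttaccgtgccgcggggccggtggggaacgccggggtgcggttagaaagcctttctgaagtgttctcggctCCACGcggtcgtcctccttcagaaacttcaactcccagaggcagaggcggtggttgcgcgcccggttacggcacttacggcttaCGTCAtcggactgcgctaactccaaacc
Apob, chr12:7977427-7977676, plus strand: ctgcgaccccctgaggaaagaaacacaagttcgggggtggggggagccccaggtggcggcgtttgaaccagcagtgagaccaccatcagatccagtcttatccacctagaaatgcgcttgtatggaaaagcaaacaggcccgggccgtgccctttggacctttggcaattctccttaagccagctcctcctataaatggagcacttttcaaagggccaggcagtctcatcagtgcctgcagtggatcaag
Mia2 start 1, chr12:59095341-59095590, plus strand: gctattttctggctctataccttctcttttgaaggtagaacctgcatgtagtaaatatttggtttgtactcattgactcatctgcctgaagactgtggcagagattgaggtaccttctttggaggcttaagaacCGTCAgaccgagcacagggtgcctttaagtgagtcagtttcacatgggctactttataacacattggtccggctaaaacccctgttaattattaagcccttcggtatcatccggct
Mia2 start 3, chr12:59131231-59131480, plus strand: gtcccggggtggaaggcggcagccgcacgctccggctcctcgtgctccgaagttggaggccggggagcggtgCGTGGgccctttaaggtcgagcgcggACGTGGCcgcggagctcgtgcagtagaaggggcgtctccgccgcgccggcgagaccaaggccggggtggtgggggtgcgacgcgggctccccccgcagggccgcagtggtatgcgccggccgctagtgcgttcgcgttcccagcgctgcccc

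The Mia3 window held TGACG 5 times, beginning at positions -246, -234, -166, -159 and -86 relative to the start, where -1 is the base just before it. The Mttp window held CCACG at -112 and TGACG, on the opposite strand, at -28. The Apob window held none of the marked letters. The windows of Surf4 and Pla2g12b, which also rose, held CCACG but no TGACG. Both start 1 and start 2 of Mia2, whose feature fell, held TGACG. Over the 8 member starts TGACG lay in 4 windows and CCACG in 4, against 17.8% and 28.3% of the 32851 promoter windows of the same length in the table. The full cyclic AMP response element TGACGTCA (1.55% of all windows) and the core of the unfolded protein response element TGACGTGG (0.563%), which overlaps both short elements, lay in 0 of the 8. The Golgi stress response element ACGTGGC, which contains CCACG on its opposite strand, lay in 2.02% of all windows and in 1 of the 8, start 3 of Mia2, at -152. The ER stress response element was found in 0.113% of all windows and its second form in 0.0304%, and neither lay in any of the 8. The starts of Mia2 spanned 35.9 kb. Their windows had a GC content of 44.0% at start 1, 37.2% at start 2 and 75.2% at start 3. The GC content was 70.4% for Mia3, 72.4% for Surf4, 61.2% for Mttp, 58.8% for Pla2g12b and 55.2% for Apob. The median over all windows was 52.4%. These matches describe the letters of the windows only.

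Of the 7 genes, 5 rose in Ad-nuclear CREBH hepatocytes (Mttp, Tm6sf2, Pla2g12b, Surf4 and Mia3). Of the others, 1 fell (Mia2) and 1 did not pass the test (Apob). Calls were made at a Benjamini-Hochberg adjusted p under 0.05 from limma over all 18820 genes. The fall of Mia2 is that of the feature annotated with this symbol, and another feature of that locus, annotated Ctage5, did not pass. By the same test 19.2% of all genes were higher and 18.2% lower, so calls in either direction were common in this comparison. All 7 members were above the median level of all genes. When only the 9410 genes at or above that median were tested, 30.8% were higher and 31.5% lower. The median log2 fold change was 1.02 over the 7 genes and 0.039 over all genes. The levels of the 3 dishes per group did not overlap for 5 members that were higher and 1 that was lower, where 26.2% of all genes were higher without overlap and 23.1% lower. Under the criteria of the study's methods (an unadjusted p under 0.001, more than 2-fold higher or less than 0.5 of the control, and a linear level above 300), 4 members were higher and 1 lower, against 4.91% and 3.1% of all genes. The member that rose by adjusted p but did not meet those criteria was Pla2g12b.

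**Figure D1:**
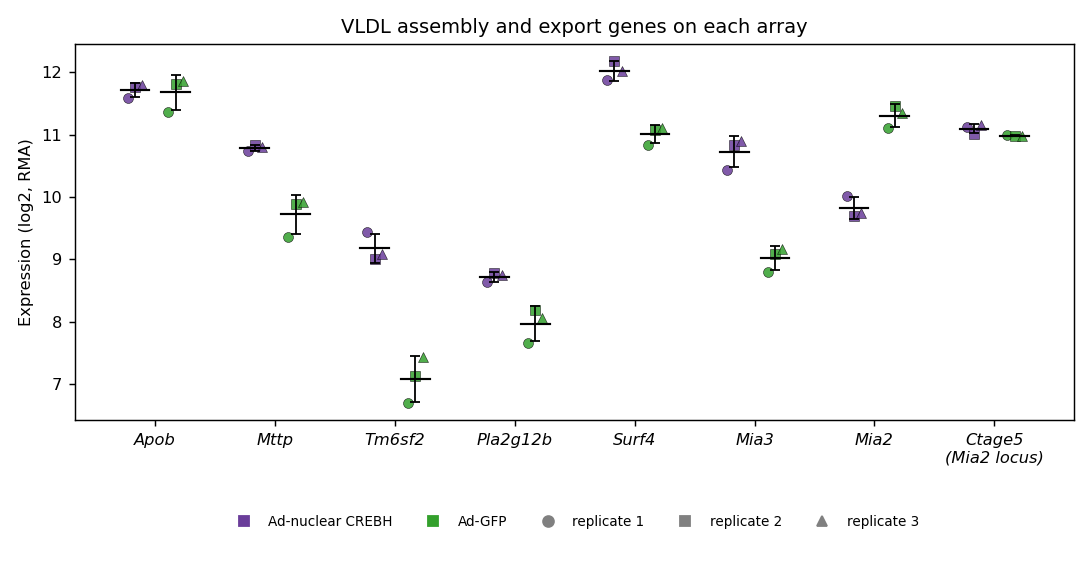
Expression of the 7 VLDL assembly and export genes and of the Ctage5 feature of the Mia2 locus on each array (y axis, log2 RMA values), with Ad-nuclear CREBH left of Ad-GFP for each gene, symbols for the 3 replicates, and a line and bars for the mean and SD. The groups overlap for Apob, lie apart for the other 6 genes with Mia2 alone lower in Ad-nuclear CREBH, and lie 0.02 apart for Ctage5.

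The transduced gene, Creb3l3, ranged between 9.97 and 10.59 on the log2 scale in Ad-nuclear CREBH dishes and between 8.02 and 8.49 in Ad-GFP dishes (log2 fold change 2.10, SE 0.19, adjusted p = 9.0e-05), a value that cannot separate the viral transcript from the mouse gene. The mean correlation of an array with its own group was between 0.991 and 0.9942 for Ad-nuclear CREBH and between 0.9857 and 0.991 for Ad-GFP, the lowest being Ad-GFP replicate 1. That array was the lowest of the Ad-GFP arrays for all 7 members, and for 45.4% of all genes. Its part in the results was measured by leaving it out, and the values without it are given beside each of the 7 genes, and beside other named genes where it changed a call or moved a called value by over 1.5 times. The hepatocyte marker Alb was at 13.27 in Ad-nuclear CREBH dishes and 13.28 in Ad-GFP dishes (means of 3), and was lower after cyclic loess only (-0.31, adjusted p = 0.00642). Of 9 measured hepatocyte markers 1 was higher (Apoa1), 3 lower (Fgb, Cps1 and Tat) and 5 did not pass, and their mean level was 10.15 to 10.67 in Ad-nuclear CREBH dishes and 10.88 to 11.01 in Ad-GFP dishes. The 2 ranges did not overlap. Mean levels of the markers of other cell types did overlap between the groups. The 7 macrophage markers (1 higher, 2 lower) averaged 5.46 to 5.75 in Ad-nuclear CREBH dishes and 5.61 to 5.89 in Ad-GFP dishes, and the 6 endothelial markers (0 called) 5.06 to 5.35 in Ad-nuclear CREBH dishes and 5.11 to 5.42 in Ad-GFP dishes. The 7 stellate cell markers (1 lower) averaged 3.91 to 4.52 in Ad-nuclear CREBH dishes and 4.24 to 4.34 in Ad-GFP dishes. For 4 cholangiocyte markers (Epcam higher, Krt19 lower) the range was 5.49 to 5.68 in Ad-nuclear CREBH dishes and 5.01 to 5.66 in Ad-GFP dishes, and for 4 leukocyte markers (0 called) it was 3.12 to 3.36 in Ad-nuclear CREBH dishes and 3.17 to 3.31 in Ad-GFP dishes. The median of all genes was 5.24, and the part of these markers in the results below was not tested.

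Apob, the structural protein of the particle, did not differ detectably between the groups. Its log2 level was 11.59, 11.76 and 11.80 in Ad-nuclear CREBH dishes, against 11.36, 11.82 and 11.86 in Ad-GFP dishes. The Ad-nuclear CREBH values lay inside the Ad-GFP range. The means were 11.71 ± 0.11 in Ad-nuclear CREBH dishes and 11.68 ± 0.27 in Ad-GFP dishes (SD, n = 3 each), and the log2 fold change was 0.03 (SE 0.14, adjusted p = 0.874). The 95% interval, from -0.28 to 0.35, leaves room for changes of that size in either direction. Without Ad-GFP replicate 1 the log2 fold change was -0.12 (adjusted p = 0.276). The genes with the closest values over the 6 arrays, each gene set relative to its own Ad-GFP mean, were Tjp1, Cyb5r3 and Clptm1l, at root mean square distances of 0.02, 0.03 and 0.03 on the log2 scale. In RNA from whole dishes, fewer cells of a type and less RNA per cell cannot be told apart, here and for every gene below.

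Mttp encodes the large subunit of microsomal triglyceride transfer protein, which moves triglyceride onto apolipoprotein B. Its log2 level was 10.74, 10.83 and 10.80 in Ad-nuclear CREBH dishes and 9.36, 9.89 and 9.92 in Ad-GFP dishes. Every Ad-nuclear CREBH dish was above every Ad-GFP dish, by at least 0.82, and the Ad-nuclear CREBH dishes lay within 0.09 of each other. Mttp rose 2.09-fold (log2 fold change 1.07, SE 0.16, 95% interval 0.71 to 1.42, adjusted p = 9.6e-04), and without Ad-GFP replicate 1 the log2 fold change was 0.88. Abca1, which exports cholesterol to apolipoprotein A-I, was the gene whose values over the 6 arrays lay closest to those of Mttp when each gene was set relative to its own Ad-GFP mean, with a root mean square distance of 0.04 on the log2 scale among 9409 genes at or above the median level. Tnfaip8 and Tbcel followed at 0.05 each.

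Tm6sf2, a multispanning membrane protein of the ER and the early secretory pathway whose loss leaves secreted VLDL poor in triglyceride, showed the largest rise of the 7. Its log2 level was 9.44, 9.01 and 9.08 in Ad-nuclear CREBH dishes, against 6.69, 7.12 and 7.43 in Ad-GFP dishes. The groups were separated by 1.58, more than the spread of 0.43 within Ad-nuclear CREBH and of 0.74 within Ad-GFP. The change was 4.27-fold (log2 fold change 2.09, SE 0.21, 95% interval 1.61 to 2.58, adjusted p = 1.5e-04), which ranked 485 among the rises of all genes. Without Ad-GFP replicate 1 the log2 fold change was 1.90. The closest genes over the 6 arrays were Tex15 (0.06), Zfp324 (0.09) and Izumo4 (0.11), farther away than the closest gene of any other member.

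Pla2g12b encodes a member of the secreted phospholipase A2 family without catalytic activity that is needed for normal particle size and triglyceride secretion in mice. Its log2 level was 8.63, 8.78 and 8.75 in Ad-nuclear CREBH dishes, against 7.65, 8.19 and 8.05 in Ad-GFP dishes. The groups did not overlap, but the gap of 0.43 was the smallest among the members that passed the test, and was narrower than the Ad-GFP range of 0.55. The change was 1.69-fold (log2 fold change 0.76, SE 0.16, 95% interval 0.38 to 1.13, adjusted p = 0.00691), and its log2 value was 0.60 (adjusted p = 0.00324) when Ad-GFP replicate 1 was left out. Its fold was under the 2-fold limit of the methods and its unadjusted p of 0.00163 over theirs. Cdc42ep4 (0.03), Irf3 (0.05) and Galc (0.05) had the closest values over the arrays.

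Surf4 is the ER cargo receptor that binds lipoproteins in the lumen and recruits them to COPII vesicles. Its log2 level was 11.87, 12.18 and 12.02 in Ad-nuclear CREBH dishes, against 10.84, 11.07 and 11.11 in Ad-GFP dishes. Both groups were tight, with ranges of 0.31 and 0.26, and lay 0.77 apart. Surf4 rose 2.03-fold (log2 fold change 1.02, SE 0.11, 95% interval 0.77 to 1.27, adjusted p = 1.9e-04), just over the 2-fold limit of the methods, and its log2 fold change was 0.94 when Ad-GFP replicate 1 was left out. The closest genes were Terf2 (0.03), Mosmo (0.05) and Rnaseh2c (0.06).

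Mia3 encodes TANGO1, the scaffold of the exit site for procollagen and for large lipoproteins. Its log2 level was 10.44, 10.84 and 10.89 in Ad-nuclear CREBH dishes, against 8.80, 9.09 and 9.16 in Ad-GFP dishes. Within each group replicate 1 was the lowest, and the groups were 1.28 apart. The change was 3.27-fold (log2 fold change 1.71, SE 0.15, 95% interval 1.35 to 2.07, adjusted p = 9.1e-05), and its log2 value was 1.60 when Ad-GFP replicate 1 was left out. The closest genes over the arrays were Rmdn3 (0.04), Dock8 (0.05) and Sec16a (0.05), of which Sec16a organizes ER exit sites and is also in the list of exit machinery described below.

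Mia2, the liver-expressed relative of Mia3, was the only member that fell. The feature annotated with this symbol had log2 levels of 10.02, 9.70 and 9.75 in Ad-nuclear CREBH dishes, against 11.10, 11.46 and 11.35 in Ad-GFP dishes. All Ad-nuclear CREBH dishes were below all Ad-GFP dishes, by at least 1.08. The level in Ad-nuclear CREBH dishes was 0.359 of that in Ad-GFP dishes (log2 fold change -1.48, SE 0.13, 95% interval -1.78 to -1.18, adjusted p = 7.6e-05), a fall that ranked 893 among the falls of all genes. With Ad-GFP replicate 1 left out the log2 fold change was -1.58. Ptges2 (0.05), Tfdp2 (0.06) and Glt1d1 (0.06) had the closest values.

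The Mia2 locus carries more than 1 kind of transcript. A long form encodes the ER-lumen cargo domain together with the cytosolic part (called TALI in human cells), and a shorter form, formerly named as the separate gene Ctage5, encodes the membrane and cytosolic part without the lumen domain. On the array these names still had a feature each. The 3 RefSeq mRNAs annotated to the Ctage5 feature are now listed under Mia2 in RefSeq, whereas the 1 mRNA annotated to the Mia2 feature is not in the present table under that gene (0 of 1), and no source used here gives the exons that each feature reads.

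The Ctage5 feature, in contrast, did not pass the test. Its log2 level was 11.12, 11.01 and 11.16 in Ad-nuclear CREBH dishes and 10.99, 10.98 and 10.98 in Ad-GFP dishes. The groups lay only 0.02 apart, with the Ad-nuclear CREBH dishes on the higher side. The log2 fold change was 0.11 (SE 0.08, 95% interval -0.07 to 0.30, adjusted p = 0.308), and its sign depended on the scaling of the arrays, with -0.07 after cyclic loess and 0.26 (adjusted p = 0.072) after centring on the median. On the same arrays, the log2 difference of the Mia2 feature minus the Ctage5 feature was -1.10, -1.31 and -1.41 in Ad-nuclear CREBH dishes and 0.11, 0.48 and 0.37 in Ad-GFP dishes. This difference, chosen after the values had been seen, shifted by -1.59, at the smallest p that an exact two-sided permutation test can give with 3 arrays per group (p = 0.1). Only the shift is informative, since levels of different features are not comparable.

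The Mia3 feature and the feature annotated Mia2 moved in opposite directions, while the Ctage5 feature of the Mia2 locus did not pass. The log2 difference of Mia2 minus Mia3 on the same array was -0.42, -1.14 and -1.14 in Ad-nuclear CREBH dishes, against 2.30, 2.37 and 2.20 in Ad-GFP dishes. The groups did not overlap, and the Ad-nuclear CREBH replicate 1 stood nearest to the Ad-GFP dishes. The shift between the groups was -3.19 (exact two-sided permutation test, p = 0.1). This is the smallest p possible with 3 against 3, so the permutation test cannot reach 0.05 on these arrays.

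**Figure D2:**
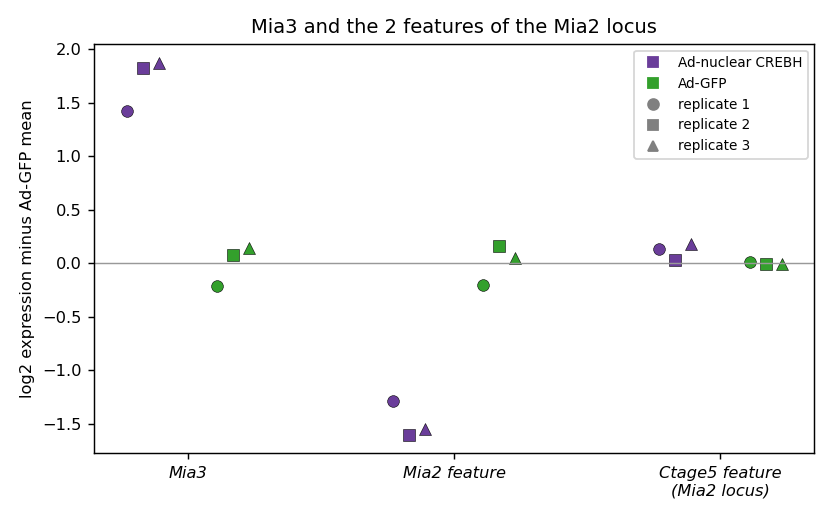
Expression of Mia3, the Mia2 feature and the Ctage5 feature on each array relative to the Ad-GFP mean of the same feature (y axis, log2 difference), with Ad-nuclear CREBH left of Ad-GFP and symbols for the 3 replicates. Mia3 is above and the Mia2 feature below the Ad-GFP dishes in all 3 Ad-nuclear CREBH dishes, with fold changes of 1.71 and -1.48 on the log2 scale, while Ctage5 stays near 0 at 0.11.

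The calls of the 6 changed genes held under each of the 16 other settings computed for single genes, among them leaving out each array and other normalizations. Their log2 fold changes ranged between 0.88 and 1.21 for Mttp, 1.77 and 2.27 for Tm6sf2, 0.60 and 0.90 for Pla2g12b, 0.81 and 1.16 for Surf4, 1.55 and 1.85 for Mia3, and -1.68 and -1.34 for Mia2. For Apob the range was -0.18 to 0.18, on both sides of 0.

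**Figure D3:**
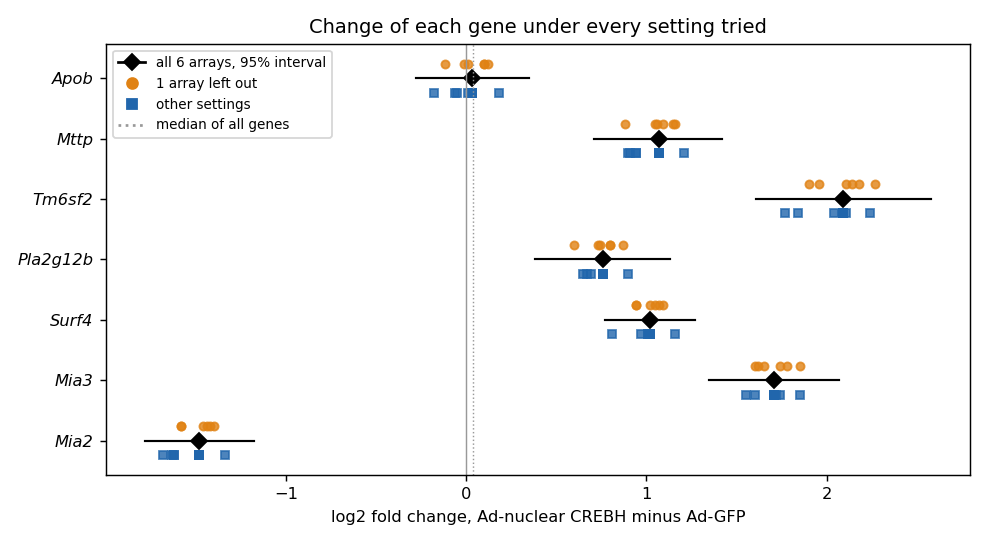
Log2 fold change of each of the 7 genes, Ad-nuclear CREBH minus Ad-GFP (x axis), from all 6 arrays with its 95% interval (black), with 1 array left out (orange) and under other settings (blue); the dotted line is the median of all genes. The settings for Apob fall on both sides of 0, and those of the other 6 genes stay on 1 side, between 0.60 and 2.27 for the 5 higher genes and between -1.68 and -1.34 for Mia2.

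Most mRNAs in the list of ER exit machinery were higher, as were those of Mia3 and Surf4. The list held the coat, its partners and also the tether for vesicles returning to the ER. Of 25 genes of the ER exit machinery, 20 were higher, 0 lower and 5 did not pass, where 19.2% of all genes were higher and 18.2% lower, with a median log2 fold change of 1.17. The largest rises were those of Mcfd2, the partner of the cargo receptor Lman1 (2.23, adjusted p = 2.3e-05), Sec16b, a scaffold of exit sites (2.21, adjusted p = 3.7e-05), and Zw10, a subunit of the tether that receives vesicles returning to the ER (2.01, adjusted p = 4.4e-05). Sar1b, the GTPase that starts the COPII coat and whose loss in humans causes chylomicron retention disease, had log2 levels of 12.51, 12.65 and 12.71 in Ad-nuclear CREBH dishes against 11.27, 11.28 and 11.47 in Ad-GFP dishes (log2 fold change 1.28, SE 0.09, adjusted p = 2.9e-05). Of the 4 isoforms of Sec24, the coat subunit that binds cargo, Sec24a (log2 fold change 1.91, adjusted p = 1.6e-04) and Sec24d (1.88, adjusted p = 3.4e-05) rose, and Sec24b (-0.24, adjusted p = 0.208) and Sec24c (0.26, adjusted p = 0.245) did not pass. Sec24b was lower after quantile normalization (-0.36, adjusted p = 0.0446), and Sec24c was higher after centring on the median (0.40, adjusted p = 0.0398) and without both arrays numbered 1 (0.27, adjusted p = 0.00503). Sar1b and the Sec24 isoforms were singled out after their values had been seen. The brightest gene of the list that did not pass was Tfg, which links the inner coat to the next compartment (0.22, adjusted p = 0.177), and it passed without Ad-GFP replicate 1 (0.31, adjusted p = 0.0318), with array weights (0.33, adjusted p = 0.00909) and without both arrays numbered 1 (0.36, adjusted p = 0.00289).

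Genes that supply lipid to the particle went both ways. Of the 11 measured, 3 were higher, 5 lower and 3 did not pass, where 19.2% of all genes were higher and 18.2% lower, with a median log2 fold change of 0.02. Dgat2, which makes triglyceride from diacylglycerol, had log2 levels of 9.47, 9.18 and 9.20 in Ad-nuclear CREBH dishes against 11.00, 11.76 and 11.73 in Ad-GFP dishes, and the log2 fold change came to -2.22 (SE 0.21, adjusted p = 1.0e-04). Ces1d and Ces1f, carboxylesterases that act on stored triglyceride, were lower on the log2 scale, Ces1d at -1.39 (adjusted p = 0.00143) and Ces1f at -1.54 (adjusted p = 0.00328). However, their means of 4.28 and 3.62 in Ad-nuclear CREBH dishes were under the median of all genes, where the sizes of changes are uncertain. Ces1f was under that median in Ad-GFP dishes too (mean 5.16), whereas Ces1d was above it there (5.67). In contrast, Aadac, an ER lipase of hepatocytes, was at 11.38, 10.84 and 10.81 in Ad-nuclear CREBH dishes and 8.26, 8.52 and 9.02 in Ad-GFP dishes, a 5.32-fold rise (log2 fold change 2.41, SE 0.22, adjusted p = 1.0e-04). P4hb, protein disulfide isomerase and the obligate small subunit of microsomal triglyceride transfer protein, was at 12.36, 12.53 and 12.49 in Ad-nuclear CREBH dishes and 11.56, 11.55 and 11.62 in Ad-GFP dishes, and rose by 0.89 on the log2 scale (adjusted p = 5.6e-05), in the same direction as Mttp. Cideb, which acts in the lipidation of VLDL, had a log2 fold change of 0.73 (adjusted p = 0.0322), and its call was lost without Ad-nuclear CREBH replicate 1 (0.66, adjusted p = 0.0996), replicate 2 (0.74, adjusted p = 0.081) or replicate 3 (0.77, adjusted p = 0.0681), after quantile normalization (0.60, adjusted p = 0.0521) and after cyclic loess (0.55, adjusted p = 0.0983). Without Ad-GFP replicate 1 the log2 fold change of Cideb was 0.44. The brightest gene that did not pass was Ces3a (0.02, adjusted p = 0.946).

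Chaperones, degradation factors and sorting receptors of apolipoprotein B were also split, with 7 of 15 higher, 5 lower and 3 not passed, where 19.2% of all genes were higher and 18.2% lower, and a median log2 fold change of 0.19. Ube2g2, a ubiquitin-conjugating enzyme of ER-associated degradation, had the largest rise in the list (1.87, adjusted p = 2.3e-05), followed by Sel1l, the adaptor of the Hrd1 ligase (0.81, adjusted p = 0.00551), and Dnajc3, a cochaperone of BiP (0.65, adjusted p = 0.00156). The lectin chaperones fell together, Canx by 0.78 on the log2 scale (adjusted p = 1.1e-04) and Calr by 0.66 (adjusted p = 0.00316). Hspa5, which encodes BiP, was at 12.78, 12.76 and 12.83 in Ad-nuclear CREBH dishes and 12.76, 12.51 and 12.54 in Ad-GFP dishes and did not pass (0.19, adjusted p = 0.105). It was higher without Ad-GFP replicate 1 (0.27, adjusted p = 0.00547), with array weights (0.25, adjusted p = 0.00288), after quantile normalization (0.27, adjusted p = 0.0246) and without both arrays numbered 1 (0.27, adjusted p = 4.9e-04). After cyclic loess the log2 fold change of Hspa5 changed sign (-0.08, adjusted p = 0.396). Sort1, which encodes the sorting receptor sortilin, had overlapping groups, and its log2 fold change of -1.17 (adjusted p = 0.0421) lost its call without Ad-nuclear CREBH replicate 1 (-0.89, adjusted p = 0.132), Ad-nuclear CREBH replicate 3 (-1.22, adjusted p = 0.0904), Ad-GFP replicate 2 or Ad-GFP replicate 3 (-0.97, adjusted p = 0.131 for each), and after cyclic loess (-1.01, adjusted p = 0.0527). The number of higher genes was 4 without Ad-nuclear CREBH replicate 3 and without Ad-GFP replicate 2. The number of lower genes was 3 without Ad-nuclear CREBH replicate 1 or 3 and without Ad-GFP replicate 2 or 3.

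Mouse liver edits Apob mRNA, which yields the short apolipoprotein B-48 beside the full-length B-100. Of 6 genes, 1 was higher, 4 lower and 1 did not pass, where 19.2% of all genes were higher and 18.2% lower, with a median log2 fold change of -0.57. A1cf, an RNA-binding cofactor of the editing enzyme, was at 4.21, 3.90 and 4.18 in Ad-nuclear CREBH dishes against 6.33, 7.43 and 7.27 in Ad-GFP dishes (log2 fold change -2.92, SE 0.29, adjusted p = 1.3e-04), so that it was under the median of all genes only after Ad-nuclear CREBH. The deaminase Apobec1 was at 9.92, 9.94 and 9.96 in Ad-nuclear CREBH dishes and 11.26, 10.58 and 10.57 in Ad-GFP dishes, and fell by 0.87 on the log2 scale (adjusted p = 0.00602). Ad-GFP replicate 1 was the highest of its group here, and the log2 fold change was -0.64 without it. Khsrp, an RNA-binding protein of the editing complex, fell by 0.93 (adjusted p = 0.00573). Rbm47, another RNA-binding cofactor, went the other way, with 9.40, 9.93 and 9.93 in Ad-nuclear CREBH dishes against 7.78, 8.66 and 8.64 in Ad-GFP dishes (log2 fold change 1.39, SE 0.26, adjusted p = 0.00355). Syncrip did not pass (0.06, adjusted p = 0.755). Edited and unedited Apob mRNA were not told apart by the array.

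Of 13 measured transcription factors known to act on Apob or Mttp, 3 were higher, 2 lower and 8 did not pass, shares near those of all genes (19.2% higher and 18.2% lower), with a median log2 fold change of -0.32. Xbp1, a factor of the unfolded protein response, was at 12.30, 12.39 and 12.36 in Ad-nuclear CREBH dishes against 11.07, 10.86 and 11.19 in Ad-GFP dishes (log2 fold change 1.31, SE 0.09, adjusted p = 3.7e-05). Foxo1, which raises Mttp transcription when insulin is low, rose by 1.03 on the log2 scale (adjusted p = 6.3e-04), and Cebpb by 1.44 (adjusted p = 0.00166). The nuclear receptor Nr5a2 was at 6.65, 6.65 and 6.67 in Ad-nuclear CREBH dishes and 7.53, 8.32 and 8.33 in Ad-GFP dishes, a fall of 1.40 on the log2 scale (-1.40, adjusted p = 0.00151). Nr0b2, a corepressor, had a log2 fold change of -0.89 (adjusted p = 0.0364), and its call was lost without Ad-nuclear CREBH replicate 2 (-0.87, adjusted p = 0.102) or replicate 3 (-0.77, adjusted p = 0.124) and without Ad-GFP replicate 2 (-0.66, adjusted p = 0.116) or replicate 3 (-0.82, adjusted p = 0.105), and after quantile normalization (-0.72, adjusted p = 0.055). Hnf4a, the brightest factor that did not pass, was at -0.37 (adjusted p = 0.129), and was lower without Ad-GFP replicate 1 (-0.53, adjusted p = 0.0111), with array weights (-0.43, adjusted p = 0.00772), after quantile normalization (-0.50, adjusted p = 0.0301) and without both arrays numbered 1 (-0.44, adjusted p = 6.2e-04). Leaving out 1 array changed the number of lower genes to 1 (Ad-nuclear CREBH replicate 2 or 3, or Ad-GFP replicate 2 or 3), 4 (Ad-nuclear CREBH replicate 1) or 5 (Ad-GFP replicate 1).

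**Figure D4:**
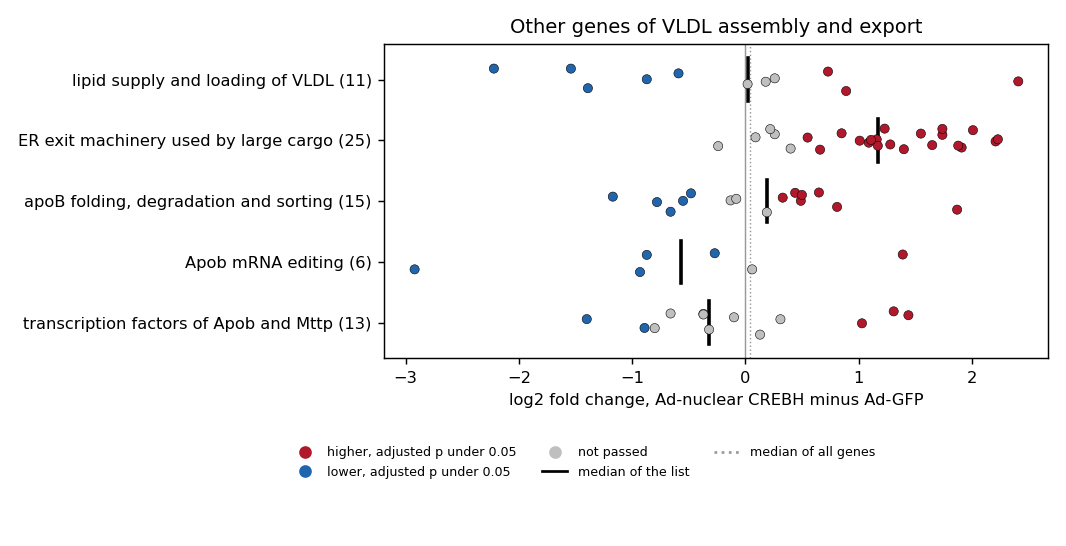
Log2 fold change of every measured gene in 5 lists of VLDL assembly and export, Ad-nuclear CREBH minus Ad-GFP (x axis), coloured by the adjusted p threshold of 0.05, with the number of genes in brackets, the median of each list (black) and of all genes (dotted, 0.039). The exit machinery lies mostly to the right, with a median of 1.17 and 20 of 25 genes higher, while the other 4 lists hold genes on both sides.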

How the data were processed

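The authors deposited RMA values, which correct background, normalize between arrays and summarize probes to transcripts. No version of RMA stands in the submitters' processing notes, and the definition of the array's features was not given in the sources used here. No log base is stated, and the deposited values of the 18820 genes used (1.52 to 13.56) have the range of log2 expression. All 6 arrays were used, grouped by the sample labels, and 0 columns stayed unmapped. No source ties a dish to an animal of its own, so p-values measure the spread between dishes, and 3 arrays per group limit the precision. The labels name TRIzol and RNeasy Micro columns for the RNA, the methods QIAzol and RNeasy Mini columns.

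Of 35556 features, 21218 carried 1 symbol, 1881 several and 12457 none. Only the first kind was used, with the highest-mean feature per gene (18820 genes). For each gene, Ad-nuclear CREBH minus Ad-GFP was estimated by limma's lmFit and moderated by eBayes with a trend on intensity (limma 3.58.1 under R 4.3.3), with 4 residual and 3.97 prior degrees of freedom and Benjamini-Hochberg adjustment over all 18820 genes. The fit was tested on simulated data first. Differences between 2 features of an array were tested by exact permutation. Figures were drawn with matplotlib 3.10.9. RefSeq names, promoters and coordinates are of GRCm38.p6, which need not be the array's build.

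Genes named are the 7 members and Ctage5; Creb3l3; in each list up to 3 largest rises and 3 largest falls past the threshold and the brightest gene that did not pass; and for each member the 3 genes with the closest values. Outside this rule, cell type markers are named as checks, and Sar1b and the Sec24 isoforms were chosen after their values had been seen. The members and lists were chosen with earlier results of these data known. The Mia2 minus Ctage5 difference and the fit without both arrays numbered 1 were added after values had been seen. Soat2, Pltp, Vmp1, Smlr1, Ass1 and Spp1 had no feature of their own symbol alone and were not analysed here, and some other listed genes are not reported here.

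The alternatives were a constant variance prior, array weights, a block for the replicate number, 3 other scalings of the arrays, other ways to handle dim genes and genes with several features, the criteria of the methods, and leaving out each array.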

Additional observations from a re-analysis of the deposited data

How the results depend on the processing

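Of the 7 genes, the 6 changed ones kept their direction and their call in all 16 settings computed per gene (highest adjusted p 0.0354, for Pla2g12b), and 4 to 5 members were called higher and 1 lower in 17 settings. The Mia2 minus Mia3 shift ranged between -3.43 and -3.07 in 8 settings. Apob changed sign with array weights (-0.05, adjusted p = 0.656), after cyclic loess (-0.18, adjusted p = 0.392) and without both arrays numbered 1 (-0.06, adjusted p = 0.303, a setting chosen after seeing the data), and ranged between -0.12 and 0.12 with 1 array left out; the cause was not tested. The criteria of the methods ask for an unadjusted p under 0.001, a change of more than 2-fold and a linear level above 300. Under them the list of lipid supply held 1 higher and 1 lower gene, and apolipoprotein B folding, degradation and sorting 1 and 0. The lists of mRNA editing and transcription factors held 0 lower. Ces1d, Ces1f, A1cf and Nr5a2 passed the fold limit (0.382, 0.343, 0.132 and 0.378 of the Ad-GFP level) but not the limit on level. With genes under the median level left out, 3 lipid supply genes were lower, since fewer were tested. After quantile normalization 1 exit machinery gene was lower. Array weights and the fit without both arrays numbered 1 each gave 7 lower transcription factors, against 1 to 5 with 1 array left out; the folding list then had 4 to 8 higher and 3 to 5 lower genes. Centring arrays on the median moved the median of all genes by more than 0.1, to 0.18, and the higher share of all calls to 62.8%, against 51.3% as deposited. Leaving out Ad-GFP replicate 1 gave 3764 higher and 4043 lower genes.

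Replicate numbers are not said to mark shared animals or days. Deviations of same-numbered arrays correlated at 0.18, 0.07 and 0.14, and those of differently numbered arrays between -0.17 and 0.12. Ad-nuclear CREBH replicates 1 and 3 correlated best with the Ad-GFP array of their own number, and replicate 2 with Ad-GFP replicate 3 (0.12). Such weak correlations cannot show whether same-numbered arrays shared an animal or a day. With the replicate block 3715 genes were higher and 3705 lower, against 3615 and 3427 without it. The block changed no call among the 7 members (Apob 0.03, adjusted p = 0.774; Mia2 -1.48, adjusted p = 6.2e-04) and, among the list genes given with a value, ended that of Nr0b2 (-0.89, adjusted p = 0.0587) and brought Hnf4a past the threshold (-0.37, adjusted p = 0.0325). RMA values carry no background flag, so whether dim genes were detected is not known, and the sizes of their changes are uncertain and may be understated.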
